A study of Mus musculus with 16 samples.

Results

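Kaede-red and Kaede-green CD11b+ cells of tumours harvested 24h after photoconversion were compared across genes. The members were chosen by the labelled colour and time alone, and are 8 of the 16 bulk RNA-seq libraries of the series, 4 per colour. Kaede transgenic C57BL/6 mice carried subcutaneous MC38-Ova tumours, a colon carcinoma line that expresses ovalbumin, and the tumour was exposed to violet light, which turns the green Kaede protein of the host cells inside it red. Kaede-red cells at 24h had therefore been in the tumour for over 24h, and Kaede-green cells had entered within the last 24h. Both groups were live CD45+, TER119-, Kaede+, CD11b+ and NK1.1- cells, both were labelled as untreated controls, and all libraries carry the same batch label. The labels give no age or sex for these mice, while the study's methods describe its mice as all female and give an age range for the study as a whole. Red cells keep some green signal, so the colours were separated by the presence of red. Photoconversion dates the last crossing into the tumour and not the age or origin of a cell, and CD11b marks monocytes, macrophages, neutrophils and some dendritic cells alike. The points of the experiment are described as tumours from independent mice, and nothing in the labels pairs a Kaede-red with a Kaede-green library.

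Circulating monocytes leave the blood, enter the tumour and mature there into tumour-associated macrophages (TAMs). On this path they are known to lose genes of the blood monocyte, such as those for Ly6C and the chitinase-like protein Chil3, and to gain genes for complement C1q, scavenger receptors, lysosomal enzymes and MHC class II. Freshly recruited monocytes are also known as a source of inflammatory cytokines, whose genes respond to NF-kB, and of interferon-stimulated transcripts. The contrast at 24h asks which of these differ between cells that have just arrived and cells that were already there.

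The libraries differed in make-up as well as in colour. Rn45s, the precursor of ribosomal RNA, took 86.5 to 93.4% of all counts in the Kaede-green libraries and 66.2 to 84.9% in the Kaede-red libraries, a difference of -15.01 percentage points in the means (two-sided exact permutation test, p = 0.0286, the smallest that 4 against 4 libraries allow). Totals ran from 4590085 to 10823666 counts in Kaede-green and from 3216858 to 13009918 in Kaede-red. Outside Rn45s, Lars2, Mir6236 and Mir6240, which together took 39.8 to 51.4% of the counts outside Rn45s in Kaede-green and 8.42 to 18.4% in Kaede-red, there were 246974 to 528644 counts per Kaede-green library and 618708 to 1672973 per Kaede-red library. Kaede-green values were thus the less precise, with 1 count worth 0.255 to 0.557 CPM (counts scaled to library size) there and 0.0645 to 0.181 CPM in Kaede-red. By raw counts with Rn45s included, Kaede-red replicates 1 and 2 resembled each other, as did replicates 3 and 4, and the former had the lower Rn45s shares. As this comparison takes in Rn45s, it does not show how the other genes group the replicates. CPM refer here to the library size scaled by the trimmed mean of M-values (TMM), which follows the bulk of genes and not Rn45s, so that they need not add up to the nominal total.

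**Figure D1:**
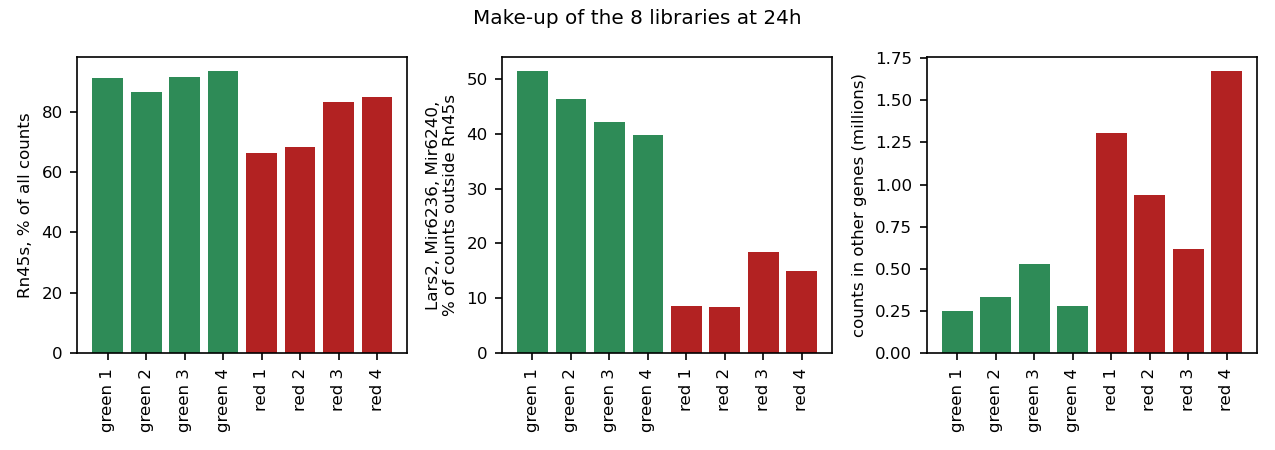
Make-up of the 8 libraries at 24h, a bar per library (green for Kaede-green, red for Kaede-red, replicates 1 to 4): Rn45s as % of all counts, Lars2, Mir6236 and Mir6240 together as % of counts outside Rn45s, and counts in all other genes. All 4 Kaede-green bars are above all 4 Kaede-red bars in the first and second panels and below them in the third.

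The genes of the sort gate were not called. Ptprc, which encodes CD45, was read at 105, 107, 84.7 and 75.1 CPM in Kaede-green replicates 1 to 4 and at 112, 112, 76.8 and 73.6 in Kaede-red replicates 1 to 4 (log2 fold change of red over green 0.02 ± 0.19 SE, adjusted p = 0.976). Itgam, which encodes CD11b, was read at 84.1, 76.0, 69.9 and 75.5 CPM in Kaede-green and at 87.9, 81.5, 70.8 and 59.5 in Kaede-red (-0.03 ± 0.19, adjusted p = 0.964). The groups overlapped for both. Scaled by the counts outside Rn45s without TMM factors, the value of Itgam was 0.86 with an adjusted p of 0.000932.

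Markers of other cells were examined, both of neutrophils and dendritic cells, which a CD11b+ gate can hold, and of fibroblasts, endothelial, epithelial and lymphoid cells, most of which a CD45+, CD11b+ and NK1.1- gate would remove. For neutrophils, 7 of 25 markers were tested, 3 of them were lower in Kaede-red and none higher, and the summed level of the list was 63.0 to 67.0 CPM in Kaede-green and 27.0 to 37.0 CPM in Kaede-red. Among the defining neutrophil markers, S100a8, S100a9, Retnlg, Ngp, Camp and Ltf were too low to be tested. The 3 that were lower were Slpi, a secreted protease inhibitor (20.1, 8.99, 12.5 and 8.16 CPM in Kaede-green, 2.80, 2.43, 3.26 and 1.48 in Kaede-red), Trem1 and Cd177, and Trem1 is also made by monocytes. The call of Cd177 (-1.98 ± 0.48, adjusted p = 0.00802) was lost without Kaede-green replicate 3 (-1.78, adjusted p = 0.0552). For fibroblasts, none of 14 tested markers was called (median log2 fold change -0.57), with summed levels of 152 to 234 CPM in Kaede-green and 72.0 to 193 CPM in Kaede-red. T and NK cells had 4 of 26 markers tested and none called, B cells 1 of 14 and none called, MC38 and epithelial cells 1 of 18 and none called, and no marker of mast cells, basophils or eosinophils was tested. Of 5 endothelial markers tested, Kdr was called higher, a call lost in each of the 8 fits without 1 library (adjusted p 0.0539 to 0.163). In bulk RNA, fewer cells of a type and less RNA per cell cannot be told apart, and the part of other cells in the differences that follow was not tested.

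Of 9642 genes tested, 724 differed between Kaede-red and Kaede-green at 24h (7.51%) by the quasi-likelihood test of edgeR, where called means a p adjusted by Benjamini-Hochberg over all genes that is under 0.05. Of these, 309 genes (3.2% of those tested) were higher in Kaede-red and 415 (4.3%) were lower, with median log2 fold changes of 1.35 and -1.07 against 0.05 over all genes tested. All 4 Kaede-red libraries lay above all 4 Kaede-green libraries for 682 genes (7.07%) and below them for 525 (5.44%), and 591 of the 724 called genes were apart in this way. Of the genes called higher, 50 had 3 or fewer counts over the 4 Kaede-green libraries, 21 of them none, while no gene called lower was so low in Kaede-red. The lower Kaede-green depth favours this asymmetry. The 50 genes passed the expression filter only through other libraries and could in practice only be called higher. They remain in the 309 and in the counts of their lists. These 50 make the band of very large fold changes at the lowest levels, where the fitted value is not a measure of size.

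The balance of the calls follows the scaling. Scaled by the counts outside Rn45s without TMM factors, 4362 genes were called higher and 79 lower (98.2% higher against 42.7% with TMM), and with Lars2, Mir6236 and Mir6240 also left out of the library size 692 and 256 (73.0% higher). These scalings moved the median log2 fold change of all genes tested from 0.05 to 0.91 and to 0.24, so that the directions below are relative to the bulk of the genes. The count of higher genes was 193 without Kaede-red replicate 1 and 197 without Kaede-red replicate 2. With Kaede-red replicates 3 and 4 alone against the 4 Kaede-green libraries, a choice made after seeing the data, 123 genes were higher and 215 lower.

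**Figure D2:**
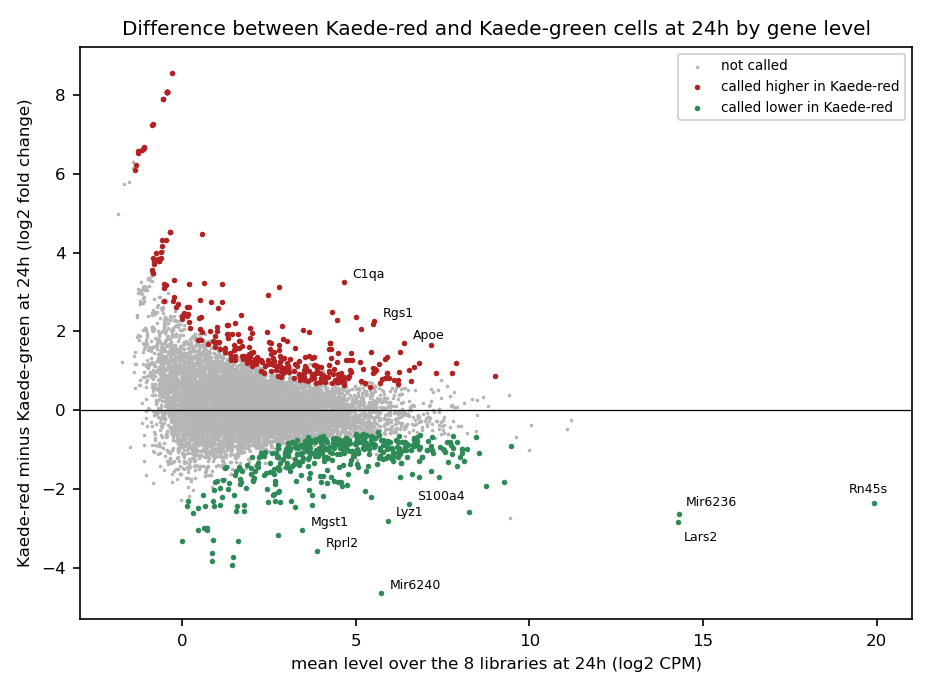
Each point is 1 of the 9642 genes tested, with its mean level over the 8 libraries at 24h (log2 CPM) on the x axis and the log2 fold change of Kaede-red over Kaede-green on the y axis. The 309 genes called higher are red, the 415 called lower green, and the rest grey. Rn45s, Lars2 and Mir6236 lie far to the right and below 0, and the band of steep rises at the left holds genes with 3 or fewer Kaede-green counts.

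Complement C1q was the clearest gain of the Kaede-red cells. C1q is the recognition molecule of the classical complement pathway, made by macrophages, and its 3 chains are encoded side by side on chromosome 4 (GRCm38.p6, positions 136880126 to 136886200 for C1qb, 136889801 to 136892936 for C1qc and 136895916 to 136898844 for C1qa). C1qa was read at 11.1, 7.36, 6.89 and 8.16 CPM in Kaede-green replicates 1 to 4 and at 94.4, 92.3, 74.0 and 54.0 in Kaede-red. C1qb was read at 17.3, 22.5, 7.66 and 12.2 CPM in Kaede-green and at 88.5, 82.7, 71.3 and 56.7 in Kaede-red. C1qc was read at 8.36, 7.76, 8.93 and 8.16 CPM in Kaede-green and at 50.5, 51.7, 48.3 and 36.4 in Kaede-red. For all 3 chains the lowest Kaede-red library was over the highest Kaede-green one, and Kaede-red replicate 4 was the lowest of its group. The fold changes were 9.59 for C1qa (log2 3.26 ± 0.24, adjusted p = 1.19e-10), 5.14 for C1qb (2.36 ± 0.29, adjusted p = 2.04e-06) and 5.59 for C1qc (2.48 ± 0.27, adjusted p = 1.77e-07). Of 14 complement genes tested, 7 were higher and none lower, the others being C4b, the anaphylatoxin receptors C3ar1 and C5ar1, and Itgax, with a list median of 0.67. C3ar1 stood at 47.7 ± 13.6 CPM (SD, n = 4) in Kaede-green and 132 ± 17.2 in Kaede-red (1.48 ± 0.22, adjusted p = 3.97e-05). C3 (log2 fold change 0.07) was not called.

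Macrophage identity genes leaned high in Kaede-red, in a list written, as all lists here, with earlier results of these data known. Of 25 tested, 16 were higher in Kaede-red and none lower, with a median log2 fold change of 0.91. Among the 16 were Adgre1, Mrc1, Mertk, Cd68, Cd63, Apoe, Maf, Folr2, Axl, Siglec1, Gpnmb, Spp1, Ms4a7, Pf4 and Stab1. With Kaede-red replicates 3 and 4 alone, 8 were called higher. Leaving out Kaede-green replicate 3 gave 10, and the Rn45s share as a covariate 7. Adgre1, which encodes F4/80, was read at 11.7, 15.9, 15.8 and 11.4 CPM in Kaede-green and at 47.9, 42.6, 36.2 and 25.4 in Kaede-red, with no overlap (1.45 ± 0.22, adjusted p = 3.97e-05). Mrc1, the mannose receptor CD206, was read at 24.5, 10.6, 18.4 and 24.5 CPM in Kaede-green and at 54.5, 49.8, 44.9 and 39.7 in Kaede-red, again with no overlap (1.29 ± 0.25, adjusted p = 0.00101). Ms4a7, a membrane protein of macrophages, was close to level among the Kaede-green libraries, at 22.8, 19.6, 22.2 and 20.4 CPM in Kaede-green and 74.5, 108, 108 and 98.6 in Kaede-red (2.19 ± 0.23, adjusted p = 9.77e-08).

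Other macrophage genes were near the limit of the Kaede-green depth. Folr2, the folate receptor beta of resident macrophages, had 3 counts over the 4 Kaede-green libraries and 258 over the 4 Kaede-red ones, a ratio of 22.4 per scaled library size with a 95% counting interval of 7.59 to 110. Pf4 encodes the chemokine CXCL4, made by platelets and by macrophages, and stood at 6.13, 0.817, 0.510 and 4.49 CPM in Kaede-green and 26.8, 17.9, 27.7 and 18.4 in Kaede-red (3.12 ± 0.44, adjusted p = 1.66e-05). The platelet marker Ppbp, too low to be tested, had 1 count over the Kaede-green libraries and 14, 3, 1 and 13 in Kaede-red, a ratio of 8.09 with a lower 95% counting limit of 1.35. Gp9 had no count in either group, and Itga2b and Gp1bb had 3 each in Kaede-green and ratios of 0.695 and 0.522. The part of platelets in the rise of Pf4 was not tested. Cx3cr1, the fractalkine receptor, was not called at 24h. It was read at 3.90, 6.13, 2.55 and 2.04 CPM in Kaede-green and at 5.25, 1.94, 2.90 and 0.967 in Kaede-red (-0.38 ± 0.45, adjusted p = 0.692), with the groups overlapping, while at 72h it stood at 1.40 (adjusted p = 0.016), without a called change from 24h to 72h (1.78 ± 0.61, adjusted p = 0.147). Csf1r (0.32), Trem2 (1.04), Cd163 (0.56) and Fcgr1 (-0.05) were not called either.

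Genes outside the lists were among the largest gains too. Cd72, a C-type lectin-like receptor with an inhibitory motif, was read at 7.80, 10.2, 11.7 and 9.79 CPM in Kaede-green and at 55.6, 50.9, 45.3 and 45.1 in Kaede-red (2.29 ± 0.22, adjusted p = 4.46e-08). Rgs1, a regulator of G protein signalling downstream of chemokine receptors, was read at 25.1, 27.0, 10.2 and 26.1 CPM in Kaede-green and at 90.8, 115, 83.1 and 126 in Kaede-red (2.26 ± 0.23, adjusted p = 9.77e-08). Both were apart by a wide margin. Il7r, the interleukin 7 receptor chain, rose 4.09-fold (adjusted p = 6.19e-05) and Slamf9, a SLAM family receptor, 4.00-fold (adjusted p = 7.90e-06). Dars, a tRNA synthetase, was higher at 14.7 ± 1.19 CPM against 4.43 ± 1.52 (SD, n = 4 each, adjusted p = 0.000141). The predicted gene Gm11711 (1.71 ± 0.30, adjusted p = 0.000302) has the same counts as Gm11710 in every library and lies at the Cd300lh locus, so that these are 1 measurement and not separate genes.

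**Figure D3:**
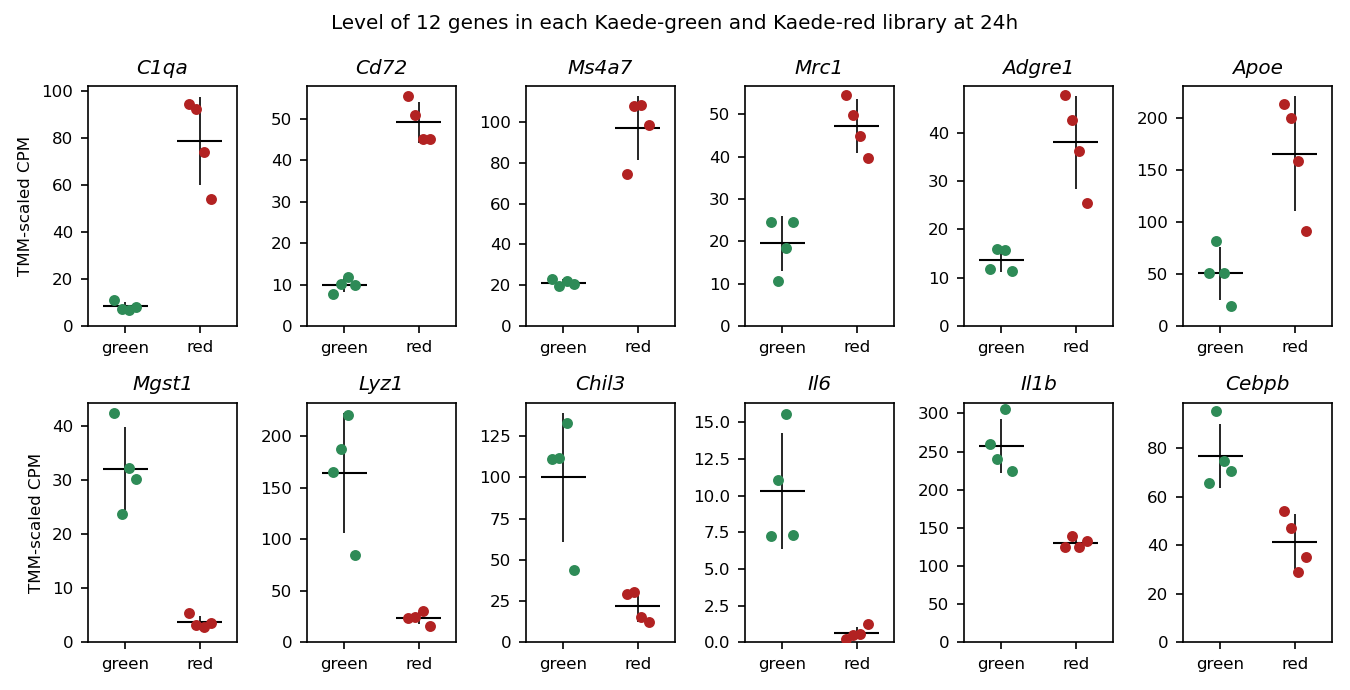
TMM-scaled CPM of 12 genes in each library at 24h, with a point per library, the mean as a horizontal bar and the SD of 4 libraries as a vertical bar, each axis starting at 0. The 6 genes of the upper row are higher in every Kaede-red library than in any Kaede-green one, and the 6 of the lower row are lower in every Kaede-red library.

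Monocyte identity genes formed the opposite group. Of 24 tested, 15 were lower in Kaede-red, 1 was higher, and the median log2 fold change was -1.07. Among the 15 were Ly6c1, Plac8, Chil3, Cebpb, Hp, Vcan, Ms4a4c, Clec4e, Thbs1, Nr4a1, Ace, Gpr141, Mgst1 and Lyz2. Lyz2 was also taken as a macrophage marker, and counting it there would put a lower call among the macrophage genes. With Kaede-red replicates 3 and 4 alone, 14 were lower. Mgst1, a microsomal glutathione transferase of early myeloid cells, was read at 42.3, 23.7, 32.1 and 30.2 CPM in Kaede-green and at 5.34, 3.16, 2.90 and 3.67 in Kaede-red (-3.05 ± 0.30, adjusted p = 4.46e-08). Hp, which encodes haptoglobin, was read at 22.3, 28.2, 24.2 and 14.3 CPM in Kaede-green and at 5.78, 4.13, 4.34 and 2.26 in Kaede-red (-2.45 ± 0.29, adjusted p = 1.16e-06). Chil3, a chitinase-like protein of Ly6C-high monocytes, was read at 111, 112, 133 and 43.7 CPM in Kaede-green and at 29.2, 30.5, 15.4 and 12.2 in Kaede-red (-2.20 ± 0.35, adjusted p = 8.67e-05). Kaede-green replicate 4 was the lowest of its group for Hp and Chil3, yet above every Kaede-red library.

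Lysozyme was lower too, with Lyz1 at 166, 188, 220 and 84.5 CPM in Kaede-green and 23.3, 25.1, 30.4 and 16.2 in Kaede-red (-2.80 ± 0.31, adjusted p = 3.76e-07). Lyz1 shares much of its sequence with Lyz2, which was also called lower (-1.81), and how reads were split between the pair is uncertain. Ace, a marker of non-classical monocytes, stood at 6.94 ± 1.63 CPM in Kaede-green and 1.28 ± 0.797 in Kaede-red (SD, n = 4 each, adjusted p = 0.000105). Ly6c2, the classical marker of inflammatory monocytes, was not called. It was read at 228, 291, 165 and 134 CPM in Kaede-green and at 149, 148, 100 and 108 in Kaede-red, with overlap (-0.69 ± 0.26, adjusted p = 0.102). Scaled by the counts outside Rn45s without TMM factors the value of Ly6c2 was 0.24, and with TMM it passed the threshold without Kaede-green replicate 4 (-0.86, adjusted p = 0.0385) or with the Rn45s share as a covariate (-1.21, adjusted p = 0.0315). Ccr2 (-0.18) and F13a1 (-0.52) were not called.

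The transcription factors of the lineage were split. Of 30 tested, 7 were higher (among them Cebpa, Maf, Pparg, Nr1h3, Spic and Id2) and 3 lower (Cebpb, Tfec and Nr4a1), with a median log2 fold change of 0.12. The 7 became 4 without Kaede-green replicate 3 or 4 or Kaede-red replicate 1 or 2. Cebpb, a factor of monocyte survival and inflammatory genes, was read at 65.7, 95.6, 75.0 and 70.6 CPM in Kaede-green and at 54.3, 47.1, 29.1 and 35.4 in Kaede-red, with no overlap (-0.89 ± 0.20, adjusted p = 0.00337). Scaled by the counts outside Rn45s without TMM factors the value of Cebpb was 0.0070. Nr4a1, an orphan nuclear receptor and also an immediate early gene, was read at 53.5, 53.1, 42.4 and 31.0 CPM in Kaede-green and at 12.6, 13.5, 11.2 and 13.3 in Kaede-red (-1.82 ± 0.20, adjusted p = 3.76e-07). Nr1h3, the liver X receptor alpha, stood at 4.16 ± 2.42 CPM in Kaede-green and 14.4 ± 2.23 in Kaede-red (SD, n = 4 each, adjusted p = 0.000639).

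Pparg, a lipid-sensing nuclear receptor, was read at 1.67, 2.04, 0.510 and 0.408 CPM in Kaede-green and at 4.20, 3.28, 2.53 and 3.87 in Kaede-red (1.72 ± 0.51, adjusted p = 0.0329), from 11 counts in all in Kaede-green. Its call was lost without Kaede-green replicate 3 or 4 or without Kaede-red replicate 1, 2 or 4 (log2 fold change 1.37 to 1.76, adjusted p 0.0513 to 0.148). Cebpa (1.28 ± 0.36, adjusted p = 0.0244), the one monocyte list gene that was higher, lost its call without Kaede-green replicate 1 or 4 or Kaede-red replicate 1 or 2 (adjusted p 0.0595 to 0.0951). Tfec (-1.43 ± 0.39, adjusted p = 0.0189) lost its call without Kaede-green replicate 1 or Kaede-red replicate 3 or 4 (adjusted p 0.0602 to 0.0774). Spic, a factor of iron-recycling macrophages, had 3 counts in Kaede-green, all in replicate 1, and 88 in Kaede-red, a ratio of 7.65 with a counting interval of 2.53 to 37.8, and its call was lost in every fit without 1 library other than that without Kaede-green replicate 1 (adjusted p 0.0616 to 0.176).

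Cytokine genes were lower in Kaede-red where they differed. Of 21 tested interleukin and TNF family genes, 5 were lower (Il6, Il18, Il15, Osm and Il1b) and none higher, with a median of -0.19, and all 5 were also called with Kaede-red replicates 3 and 4 alone. Il6, which encodes interleukin 6, was read at 7.24, 11.03, 15.6 and 7.34 CPM in Kaede-green and at 0.263, 0.486, 0.543 and 1.23 in Kaede-red, from 119 and 29 counts. The locus overlaps the annotated gene A230098N10Rik, and whether the counting used the strand is not given in the sources used here. Every Kaede-red library was far below every Kaede-green one, and the level was 15.3-fold higher in Kaede-green (-3.94 ± 0.51, adjusted p = 4.29e-06). Il1b, interleukin 1 beta, was read at 260, 240, 305 and 224 CPM in Kaede-green and at 125, 139, 125 and 133 in Kaede-red (-0.98 ± 0.19, adjusted p = 0.000901). Il18 was read at 20.6, 15.1, 25.5 and 10.6 CPM in Kaede-green and at 6.48, 4.37, 5.97 and 4.25 in Kaede-red (-1.79 ± 0.29, adjusted p = 0.000105).

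The genes for the regulatory cytokines IL-10 and TGF-beta1 were not called at 24h. Il10 was read at 2.23, 1.64, 0.510 and 1.63 CPM in Kaede-green and at 1.75, 0.729, 1.63 and 2.71 in Kaede-red, on 14 and 77 counts (0.32 ± 0.70, adjusted p = 0.850). At this depth and with this error a difference of the size seen for Il1b was not detectable. Tgfb1 was read at 20.6, 45.8, 28.1 and 20.8 CPM in Kaede-green and at 26.8, 31.0, 19.4 and 17.1 in Kaede-red (-0.30 ± 0.25, adjusted p = 0.543), with Kaede-green replicate 2 the highest of all 8. The value at 72h was 1.06 on the log2 scale (adjusted p = 0.0022), with the change between the times not called (1.36 ± 0.35, adjusted p = 0.0560). Tnf (0.79) and Csf1 (0.06) were not called.

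Chemokine genes moved in both directions. Of 19 tested, 5 were higher (Ccl7, Ccl8, Ccl22, Cxcl16 and Pf4) and 3 lower (Cxcl10, Ccl4 and Ccl9), with a median of 0.39 that lay below that of all genes in 4 of 21 alternatives. The 3 lower ones became 1 without Kaede-green replicate 1 or 2 or Kaede-red replicate 1. Cxcl16, a membrane-bound chemokine and scavenger receptor, was read at 19.5, 36.0, 14.6 and 6.12 CPM in Kaede-green and at 76.5, 98.6, 69.7 and 69.9 in Kaede-red (2.06 ± 0.28, adjusted p = 1.15e-05). Cxcl10, the interferon-inducible ligand of CXCR3, was read at 124, 134, 131 and 106 CPM in Kaede-green and at 61.0, 74.0, 59.6 and 49.8 in Kaede-red (-1.02 ± 0.22, adjusted p = 0.00271). Neither overlapped. Ccl4 (-0.94 ± 0.26, adjusted p = 0.0194) lost its call without Kaede-green replicate 1 or 2 or Kaede-red replicate 1 or 3 (adjusted p 0.0551 to 0.0761). Ccl22 and Ccr7, a chemokine and a chemokine receptor of mature dendritic cells, had no count in any Kaede-green library and 42 and 65 counts in Kaede-red. Taking 3 counts over the Kaede-green group as its floor, Ccl22 was at least 3.42-fold and Ccr7 at least 5.78-fold higher in Kaede-red. The call of Ccl22 was lost without any one of the 4 Kaede-green libraries or without Kaede-red replicate 1 (adjusted p 0.0689 to 0.132). Of 10 dendritic cell markers tested, Ccl22 and Ccr7 were called higher and none lower, while 6 had negative log2 fold changes (list median -0.13). The markers Flt3, Xcr1, Clec9a and Siglech were too low to be tested. The summed level of the dendritic cell list was 37.95 to 64.1 CPM in Kaede-green and 45.4 to 49.1 CPM in Kaede-red.

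Interferon, NF-kB and immediate early lists had medians below that of all genes, while 4.3% of all genes tested were called lower. Of 39 tested interferon-stimulated antiviral genes, 7 were lower (Isg15, Isg20, Mx1, Mx2, Cmpk2, Rtp4 and Slfn5) and 1 higher, with a median of -0.34. Of 23 interferon gamma-inducible genes, 4 were lower (Gbp2, Ifi47, Socs1 and Cxcl10) and none higher, with a median of -0.35. Of 29 NF-kB subunits and feedback genes, 3 were lower (Ptgs2, Tnfaip2 and Ier3) and none higher, with a median of -0.25. Of 26 immediate early genes, 6 were lower (Fos, Fosl2, Junb, Nr4a1, Zfp36 and Btg2) and none higher, with a median of -0.45. Without Kaede-green replicate 2 the early genes were 3, and with the covariate 2. The antiviral genes called lower were 4 without Kaede-red replicate 3, and the interferon gamma-inducible ones 2 without Kaede-green replicate 2, Kaede-red replicate 3 or Kaede-red replicate 4. The NF-kB genes called lower were 5 without Kaede-green replicate 4 and 1 in every fit without 1 of the other libraries except Kaede-green replicate 3 and Kaede-red replicate 2. They were also 1 with the covariate, with the Kaede-red libraries thinned to the Kaede-green depth and with Kaede-red replicates 3 and 4 alone. A share of 1 in 29 is below the 4.3% of all genes. Each of the 4 medians stayed below that of all genes in all 21 alternatives, a comparison that a change of scaling hardly alters. Scaled by the counts outside Rn45s without TMM factors, 24 antiviral, 12 interferon gamma-inducible, 16 NF-kB and 9 early genes were higher. With that scaling 1 early gene was lower and none of the other lists. Isg15, a ubiquitin-like protein that interferons induce, was read at 225, 233, 177 and 194 CPM in Kaede-green and at 102, 110, 100 and 99.8 in Kaede-red, with no overlap (-1.01 ± 0.19, adjusted p = 0.000639). Mx2 stood at 21.4 ± 2.82 CPM against 9.38 ± 1.59 (SD, n = 4 each, adjusted p = 0.000937), and Ifi47, an interferon-inducible GTPase, at 110 ± 36.4 CPM against 53.0 ± 3.06 (adjusted p = 0.00176). Btg2, an antiproliferative early gene, was 2.27-fold higher in Kaede-green (adjusted p = 5.71e-05) and Ptgs2, the inducible cyclooxygenase, 1.83-fold (adjusted p = 0.00442). Ifit1 (-0.59), Irf7 (-0.39), Nfkbia (-0.26) and Tnfaip3 (-0.24) were not called.

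Some of these calls lay near the threshold. Ifi44, the one antiviral gene higher in Kaede-red (0.97 ± 0.28, adjusted p = 0.0288), lost its call without Kaede-green replicate 2 or 3 or Kaede-red replicate 1 (0.81 to 0.89, adjusted p 0.0973 to 0.101). Socs1 (-1.02 ± 0.32, adjusted p = 0.0458) kept its call only without Kaede-green replicate 3 or 4, and Tnfaip2 (-0.82 ± 0.26, adjusted p = 0.0479) only without Kaede-green replicate 4 or Kaede-red replicate 2, with adjusted p of up to 0.178 and 0.309 in the other fits.

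The promoters of Il6, Cxcl10 and Isg15 are printed because these 3 cytokine, chemokine and interferon-stimulated genes were lower in Kaede-red. They are the 250 bases before the start of each gene in RefSeq GRCm38.p6, 5′ to 3′ on the strand of the gene, with capitals for every match on either strand to 5 motifs, the kappa B site GGANTTTCC, the interferon response element TTCNNTTTC, the AP-1 site TGANTCA, the E-box CACGTG of the MiT/TFE and MYC families and the cAMP response element TGACGTCA, where N is any base.
Il6 (+ strand, chr5:30012864-30013113): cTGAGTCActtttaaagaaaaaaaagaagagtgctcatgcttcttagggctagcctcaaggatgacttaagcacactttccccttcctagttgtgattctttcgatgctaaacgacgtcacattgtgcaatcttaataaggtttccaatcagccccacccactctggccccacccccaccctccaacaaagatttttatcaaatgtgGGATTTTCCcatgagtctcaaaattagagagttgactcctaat
Cxcl10 (- strand, chr5:92348890-92349139): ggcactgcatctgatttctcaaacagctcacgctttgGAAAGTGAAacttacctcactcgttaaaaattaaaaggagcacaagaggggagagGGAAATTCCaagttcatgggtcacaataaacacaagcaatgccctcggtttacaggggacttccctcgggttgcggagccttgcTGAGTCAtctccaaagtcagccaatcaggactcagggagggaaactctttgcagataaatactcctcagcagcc
Isg15 (- strand, chr4:156200819-156201068): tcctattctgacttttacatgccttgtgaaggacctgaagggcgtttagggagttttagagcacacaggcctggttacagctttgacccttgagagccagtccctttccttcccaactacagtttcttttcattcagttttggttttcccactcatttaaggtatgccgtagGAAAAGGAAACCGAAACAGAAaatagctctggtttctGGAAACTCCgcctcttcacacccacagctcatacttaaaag

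In these windows Il6 holds an AP-1 and a kappa B match, Cxcl10 an interferon response, a kappa B and an AP-1 match, and Isg15 3 overlapping interferon response matches and a kappa B match. Over the window that also takes in 50 bases after the start, 7300 of the 9642 genes tested had a promoter in the table, with 235 of the 309 called higher and 283 of the 415 called lower. C1qa, C1qb and C1qc were not among them. The interferon response motif was in 12.4% of the promoters of genes called lower, 7.66% of those called higher and 7.75% of all, and the kappa B motif in 2.83%, 1.28% and 1.33%. The AP-1 motif was in 9.19% of promoters of genes called lower, 8.51% of those called higher and 5.07% of all, while the E-box was in 7.42%, 8.09% and 10.8% and the cAMP response element in 4.24%, 1.28% and 3.51%. These shares are a description without a test, and a match of letters does not show a bound site.

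Lysosomal and phagocytic genes leaned high in Kaede-red. Of 56 tested genes of lysosomal enzymes and membrane proteins, 12 were higher and none lower, with a median of 0.48. The 12 were the cathepsins Ctsb, Ctsd and Ctsl, the legumain gene Lgmn, Lipa, Cd63, Cd68, Idua, Aga, Acp5, Acp2 and Grn. With Kaede-red replicates 3 and 4 alone, 7 were higher. Acp5, the tartrate-resistant acid phosphatase, was read at 2.79, 0.817, 0.255 and 0 CPM in Kaede-green, from 8 counts, and at 9.72, 7.53, 5.79 and 5.80 in Kaede-red (3.21 ± 0.52, adjusted p = 0.000105). Idua, an enzyme of glycosaminoglycan breakdown (2.39 ± 0.68, adjusted p = 0.0257, 6 Kaede-green counts), lost its call without Kaede-green replicate 1, 2 or 4 or Kaede-red replicate 3 (adjusted p 0.0559 to 0.0708). Of 28 Fc gamma and phagocytic receptor genes, 7 were higher (Fcgr2b, Mertk, Axl, Cd36, Stab1, Itgax and Mrc1) and 2 lower, with a median of 0.40, and without Kaede-green replicate 1 or 2 or Kaede-red replicate 1 or 2 the 7 became 4. Cd36, a scavenger receptor for oxidised lipids, was read at 1.67, 0.817, 1.02 and 4.90 CPM in Kaede-green and at 12.8, 5.58, 7.78 and 8.06 in Kaede-red (2.08 ± 0.42, adjusted p = 0.00137), with no overlap. The 2 lower ones were Clec4e, which encodes the C-type lectin Mincle (79.3 ± 24.5 CPM against 31.1 ± 5.09, SD, n = 4 each, adjusted p = 0.000334), and its neighbour Clec4d, whose call (-0.92 ± 0.25, adjusted p = 0.0196) was lost without Kaede-green replicate 1 or 2 or Kaede-red replicate 3 or 4 (adjusted p 0.0538 to 0.0883).

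Of 30 lipid handling genes, 9 were higher (Apoe, Abca1, Fabp5, Cd36, Plin2, Lipa, Nr1h3, Pparg and Ch25h) and 3 lower (among them Hmgcs1 and Insig1), with a median of 0.15. The higher ones include the liver X receptor alpha gene and its known target genes Apoe and Abca1, and Hmgcs1 and Insig1 belong to sterol synthesis and its control. Apoe, the apolipoprotein of macrophages, was read at 50.7, 81.3, 50.8 and 19.2 CPM in Kaede-green and at 213, 199, 159 and 90.9 in Kaede-red, with no overlap (1.71 ± 0.28, adjusted p = 0.000150). Hmgcs1 stood at 11.3 ± 3.40 CPM in Kaede-green and 5.53 ± 1.08 in Kaede-red (SD, n = 4 each, adjusted p = 0.0112), and Insig1 at 11.3 ± 2.61 CPM and 5.71 ± 0.548 (adjusted p = 0.0114). Ch25h (2.34 ± 0.70, adjusted p = 0.0345, 6 Kaede-green counts) lost its call without Kaede-green replicate 1 or 3 or Kaede-red replicate 1, 3 or 4 (adjusted p 0.0537 to 0.154). Of 16 iron and haem genes, 4 were higher (Spic, the iron exporter gene Slc40a1, the ferritin heavy chain gene Fth1 and Slc11a1) and none lower, with a median of 0.63. None was called with Kaede-red replicates 3 and 4 alone, 2 were without Kaede-green replicate 4 or Kaede-red replicate 2, and 1 was without Kaede-red replicate 1. Slc40a1 (2.76 ± 0.71, adjusted p = 0.0133, 8 Kaede-green counts) lost its call without Kaede-red replicate 1 (2.20, adjusted p = 0.109).

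Antigen presentation differed for a few genes. Of 13 MHC class II genes tested, 3 were higher (H2-Eb1, H2-Aa and H2-Ab1) and none lower, with a median of 0.38, and none was called with Kaede-red replicates 3 and 4 alone. The 3 became 5 without Kaede-green replicate 2 and 1 without Kaede-green replicate 3 or 4 or Kaede-red replicate 1 or 2. H2-Eb1 was read at 38.4, 49.0, 28.1 and 16.7 CPM in Kaede-green and at 95.4, 80.4, 51.0 and 51.3 in Kaede-red (1.08 ± 0.26, adjusted p = 0.00774). H2-Aa was read at 95.3, 115, 43.6 and 29.4 CPM in Kaede-green and at 175, 166, 116 and 109 in Kaede-red (1.01 ± 0.30, adjusted p = 0.0371). Replicates 1 and 2 were the higher ones in both colours, and the groups of H2-Aa overlapped. Its call was lost without Kaede-green replicate 3 or 4 or Kaede-red replicate 1 or 2 (adjusted p 0.101 to 0.146). The class II transactivator Ciita (0.16) and Cd74 (0.77) were not called. Of 17 class I genes, H2-K1 and H2-Q7 were higher and Nlrc5 lower. H2-K1 stood at 158 ± 18.9 CPM in Kaede-green and 302 ± 42.3 in Kaede-red (SD, n = 4 each, adjusted p = 0.00186). H2-Q7 (0.94 ± 0.25, adjusted p = 0.0153) lost its call without Kaede-green replicate 2 or 4 (adjusted p 0.0520 to 0.0641), and Nlrc5 (-0.65 ± 0.21, adjusted p = 0.0486) lost it in each of the 8 fits without 1 library (adjusted p 0.0633 to 0.172). The class I genes resemble each other in sequence, and how reads were split among them is uncertain.

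Ribosomal protein genes were lower as a body. Of 79 genes of the cytoplasmic ribosome, 58 were lower in Kaede-red and none higher, with a median of -0.94, and 25 were lower with Kaede-red replicates 3 and 4 alone and 8 with the Rn45s share as a covariate (median -0.73). Without TMM factors, with Rn45s, Lars2, Mir6236 and Mir6240 out of the library size, 47 were lower and 1 higher. Rps14 was read at 412, 329, 278 and 219 CPM in Kaede-green and at 74.7, 93.5, 108 and 102 in Kaede-red (-1.71 ± 0.26, adjusted p = 6.03e-05). Rps23 was read at 457, 392, 440 and 294 CPM in Kaede-green and at 116, 147, 177 and 152 in Kaede-red (-1.42 ± 0.23, adjusted p = 9.98e-05). The Kaede-red libraries were all below the Kaede-green ones for both. Ribosomal protein transcripts are known to begin with a run of pyrimidines at which their translation is controlled. Among the 58 of 79 with a promoter in the RefSeq table, 39.7% had a run of at least 7 C or T within 10 bases of the start, against 11.8% of all genes tested, and among those called lower the share was 37.0%. Among 5 of the largest falls that have a promoter in the table, Rps23, Rpl37a and Rps25 had no such run. For the other pair, the 15 bases before and after the start (GRCm38.p6) are given as examples, with the run in capitals.
Rps27 (- strand, chr3:90213634-90213663): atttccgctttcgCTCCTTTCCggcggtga
Rps9 (+ strand, chr7:3704026-3704055): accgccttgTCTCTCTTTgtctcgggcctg

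Of 76 genes of the respiratory chain and ATP synthase, 10 were lower and none higher, with a median of -0.36. The 10 became 19 without Kaede-green replicate 4, 4 with Kaede-red replicates 3 and 4 alone and 1 with the Rn45s share as a covariate. Uqcrh, a subunit of complex III, was read at 81.3, 69.9, 61.5 and 56.3 CPM in Kaede-green and at 21.0, 21.9, 28.4 and 21.6 in Kaede-red (-1.54 ± 0.23, adjusted p = 3.97e-05), and Ndufa1 of complex I was 2.80-fold higher in Kaede-green (adjusted p = 0.00237). The features Mir6240, Rprl2, Lars2, Mir6236 and Rn45s were among the 12 largest falls at moderate or high level. Rprl2, an RNase P RNA, was read at 52.4, 50.3, 56.6 and 55.1 CPM in Kaede-green and at 2.28, 1.94, 8.15 and 6.06 in Kaede-red (-3.58 ± 0.50, adjusted p = 1.28e-05). Mir6240 fell by 4.65 (SE 0.75, adjusted p = 0.000105), Lars2 by 2.84 (SE 0.51, adjusted p = 0.000344) and Mir6236 by 2.64 (SE 0.54, adjusted p = 0.00159) on the log2 scale. Lars2 and Mir6236 had similar counts in each library and Kaede-green means of 55730 and 53260 CPM. What the reads of these features come from was not tested, and the values are not read as levels of the transcripts they are named for. Rn45s was lower by the same fit (-2.36 ± 0.71, adjusted p = 0.0354), a call lost without Kaede-green replicate 1 or 3 or Kaede-red replicate 1 or 2 (adjusted p 0.0566 to 0.109). Genes called lower had a median span of 8161 bases in RefSeq, against 22849 for genes called higher and 23601 for all. Of the 2285 genes of shortest span (48 to 10267 bases) 221 were called lower and 75 higher, and of the 2285 of longest span (from 52556 bases) 56 and 63. The Rn45s share and colour moved together in these 8 libraries, and their parts in these falls cannot be told apart. With the Kaede-red libraries thinned to the Kaede-green depth, 259 genes were called higher and 377 lower, and 613 of the 724 calls were shared.

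Of 34 glycolysis and hypoxia genes, Pdk1 and Arg1 were higher and none lower, with a median of 0.01. Arg1, arginase 1, was read at 50.1, 55.6, 19.9 and 19.6 CPM in Kaede-green and at 82.8, 89.4, 62.6 and 88.3 in Kaede-red, with no overlap (1.18 ± 0.29, adjusted p = 0.00796). Its call was lost without Kaede-green replicate 3 (0.95, adjusted p = 0.0555). Pdk1, a pyruvate dehydrogenase kinase, rose from 2.47 ± 1.29 CPM to 6.497 ± 1.06 (SD, n = 4 each, adjusted p = 0.0115). In the arginine and polyamine list of 16, with 2 higher and 2 lower and a median of -0.20, Odc1 was also higher (0.92 ± 0.23, adjusted p = 0.0103), a call lost without Kaede-red replicate 4 (0.80, adjusted p = 0.0519), and Smox was lower (-0.95 ± 0.22, adjusted p = 0.00638), as was Oaz1 (-0.71 ± 0.21, adjusted p = 0.0329), which kept its call only without Kaede-green replicate 3 or 4 (adjusted p 0.0670 to 0.124 in the other 6 fits). Nos2 (-0.44) was not called. Of 32 antioxidant and NADPH oxidase genes, 5 were lower (Mgst1, Gsr, Prdx2, Prdx5 and Gpx4) and 1 higher, with a median of -0.23, and the 5 became 3 without Kaede-green replicate 1 or 2 and 8 without Kaede-green replicate 4. Gsr, glutathione reductase, stood at 37.7 ± 4.92 CPM in Kaede-green and 19.0 ± 1.83 in Kaede-red (adjusted p = 0.000776). The higher one, Txnip (0.69 ± 0.18, adjusted p = 0.0152), lost its call without Kaede-red replicate 1 (0.61, adjusted p = 0.0676).

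Of 22 matrix, growth factor and wound repair genes, 5 were higher (Spp1, Mmp12, Mmp13, Timp2 and Plau) and 2 lower (Thbs1 and Mmp19), with a median of 0.23, and the 5 became 3 without Kaede-green replicate 1 or 3. Mmp12, the macrophage metalloelastase, was read at 1.67, 2.04, 1.53 and 2.86 CPM in Kaede-green and at 17.3, 16.3, 7.60 and 19.2 in Kaede-red (2.93 ± 0.37, adjusted p = 3.43e-06). Timp2, a metalloproteinase inhibitor, was 2.80-fold higher in Kaede-red (adjusted p = 0.00402). Thbs1, thrombospondin 1, was read at 604, 570, 588 and 467 CPM in Kaede-green and at 334, 307, 182 and 220 in Kaede-red (-1.10 ± 0.22, adjusted p = 0.00103). None of these 3 overlapped. Mmp19 (-0.95 ± 0.30, adjusted p = 0.0476) kept its call only without Kaede-green replicate 4 or Kaede-red replicate 1 (adjusted p 0.0577 to 0.271 in the other fits). Of 16 co-stimulatory and checkpoint ligands, only Sirpa, the receptor of CD47, was called (34.0 ± 10.1 CPM in Kaede-green, 65.7 ± 13.7 in Kaede-red, SD, n = 4 each, adjusted p = 0.00319). Cd274, which encodes PD-L1 (-0.05), and Pdcd1lg2 (-0.16) were not called. Of 34 mitosis and S phase genes none was called in either direction, with a median of 0.04 and Mki67 at 0.03. The median of the chemokine receptor list of 13, in which Ccr7, Cmklr1, C5ar1 and C3ar1 were higher and none lower, was 0.12, and the 4 became 2 without Kaede-green replicate 1 or Kaede-red replicate 1 or 2. Relative to the median of all genes, the list medians took the other sign in 1 of 21 alternatives for class I, 2 for matrix genes, 3 for glycolysis, 4 for chemokine receptors, 5 for transcription factors, 10 for co-stimulatory ligands and 13 for mitosis, and in none for the other lists of the plot of gene lists, chemokines apart. Among the cell type markers it did so in 1 of 21 alternatives for T and NK cells, 2 of 21 for dendritic cells, 2 of 17 for MC38 and epithelial cells, 5 of 20 for erythroid cells and platelets and 6 of 21 for endothelial cells.

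**Figure D4:**
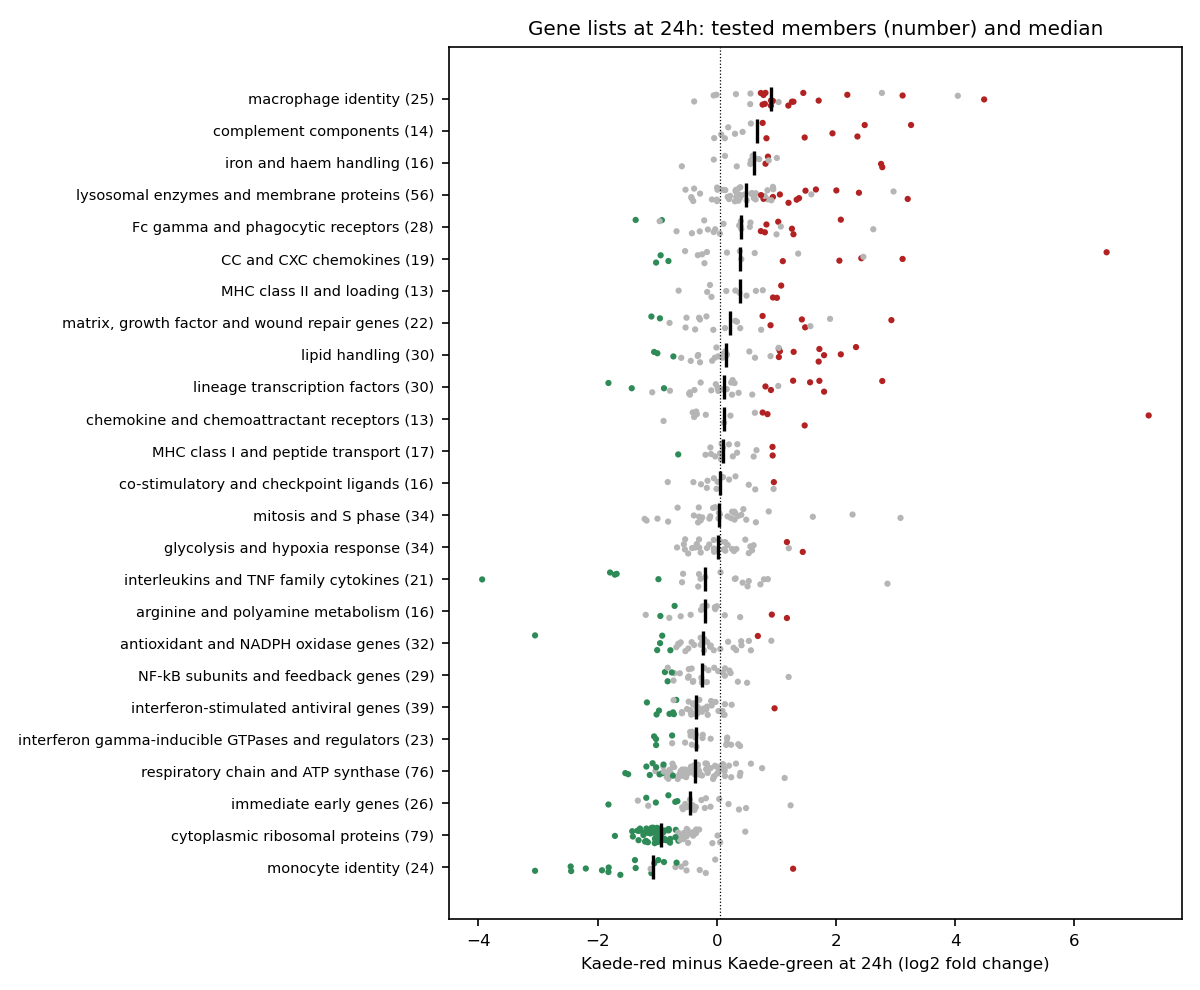
Log2 fold change of Kaede-red over Kaede-green at 24h for the tested members of 25 gene lists (number in brackets), red for called higher, green for called lower and grey for not called, with the list median as a black bar and the median of all genes tested as a dotted line. Macrophage identity is at the top with 16 of 25 called higher, and monocyte identity at the bottom with 15 of 24 called lower.

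Of 6 S100 genes tested 5 were lower, and of 4 Ifitm genes 2 were lower, with none higher in either family. S100a4, a calcium-binding protein of motile cells, was read at 231, 207, 248 and 168 CPM in Kaede-green and at 37.9, 46.5, 43.1 and 35.3 in Kaede-red (-2.39 ± 0.25, adjusted p = 9.77e-08). Ifitm6, a myeloid member of the interferon-induced transmembrane family, was read at 49.6, 24.9, 40.1 and 15.5 CPM in Kaede-green and at 7.79, 5.46, 4.34 and 6.38 in Kaede-red (-2.41 ± 0.35, adjusted p = 3.13e-05). In both the groups were apart. Gm8979, a predicted gene, was lower at 4.41 ± 3.83 CPM against 22.04 ± 8.48 (SD, n = 4 each, adjusted p = 0.000818).

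The same contrast at 72h, from 8 other libraries, places the 24h values in time. Of the 724 genes called at 24h, 627 (86.6%) had the same sign at 72h, against 63.1% of all genes tested, 391 were called the same way and 4 the opposite way. At 72h too the Rn45s share moved with colour, at 79.0 to 91.0% of all counts in Kaede-green and 55.8 to 73.8% in Kaede-red. The parts of colour and of library make-up in this agreement cannot be told apart. A change of the red-green difference between the times was called for 74 genes (0.767%), 36 of which were also called at 24h. Of these 36, 34 had the smaller difference at 72h. Choosing genes by their call at 24h favours smaller differences at 72h, here and for the genes named below. The 74 became 6 without Kaede-green replicate 2, 13 without Kaede-green replicate 3, 2 without Kaede-red replicate 3, 5 without Kaede-red replicate 4, 127 without Kaede-green replicate 4 and 155 without Kaede-red replicate 1. C1qa (log2 fold change 2.18 at 72h), Mgst1 (-1.67), Il6 (-2.73), Adgre1 (1.598) and Mrc1 (1.73) were called in the same direction at both times, with no change called between them. Other genes lower at 24h were not called at 72h, among them Cebpb (0.08), Cxcl10 (-0.05), Thbs1 (0.01) and Chil3 (-0.39), although their changes between the times were not called either (adjusted p 0.0734, 0.107, 0.0673 and 0.0610). The list medians at 72h were 0.04 for monocyte identity (-1.07 at 24h), 0.15 for antiviral genes (-0.34), 0.35 for interferon gamma-inducible genes (-0.35), 1.40 for macrophage identity (0.91) and -1.28 for ribosomal proteins (-0.94).

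The genes with the largest changes between the times among those higher at 24h were no longer called at 72h. Rgs1 had a log2 fold change of 2.26 at 24h and 0.01 at 72h (change -2.25 ± 0.32, adjusted p = 0.000476), Ms4a7 2.19 and 0.52 (change -1.67 ± 0.31, adjusted p = 0.0145), and Riok2, a ribosome assembly kinase, 1.59 and -0.83 (change -2.42 ± 0.48, adjusted p = 0.0217). Tmem11, a mitochondrial membrane protein, went from 2.80 to -1.06 (change -3.85 ± 0.83, adjusted p = 0.0281), on 5 Kaede-green counts at 24h and with its 24h call lost without Kaede-green replicate 3 (2.16, adjusted p = 0.0515). The lower ones at 24h with the largest changes were Cd33 (-3.03 at 24h and 0.32 at 72h, adjusted p of the change 0.0249), Ace (-2.44 and 0.51, adjusted p 0.00763), Cd177 (-1.98 and 0.94, adjusted p 0.0281), Nhsl2 (-1.99 and 0.92, adjusted p 0.0467) and F5 (-2.45 and 0.09, adjusted p 0.0492). The 24h call of Cd177 was lost without Kaede-green replicate 3 (adjusted p = 0.0552) and that of Nhsl2 without Kaede-green replicate 2 (adjusted p = 0.0759). Snora7a, a small nucleolar RNA within Rpl32, was lower at both times and more so at 72h (-1.11 and -3.04, adjusted p of the change 0.0281), with its 24h call lost without Kaede-red replicate 1 or 2 (adjusted p 0.0637 to 0.0674).

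**Figure D5:**
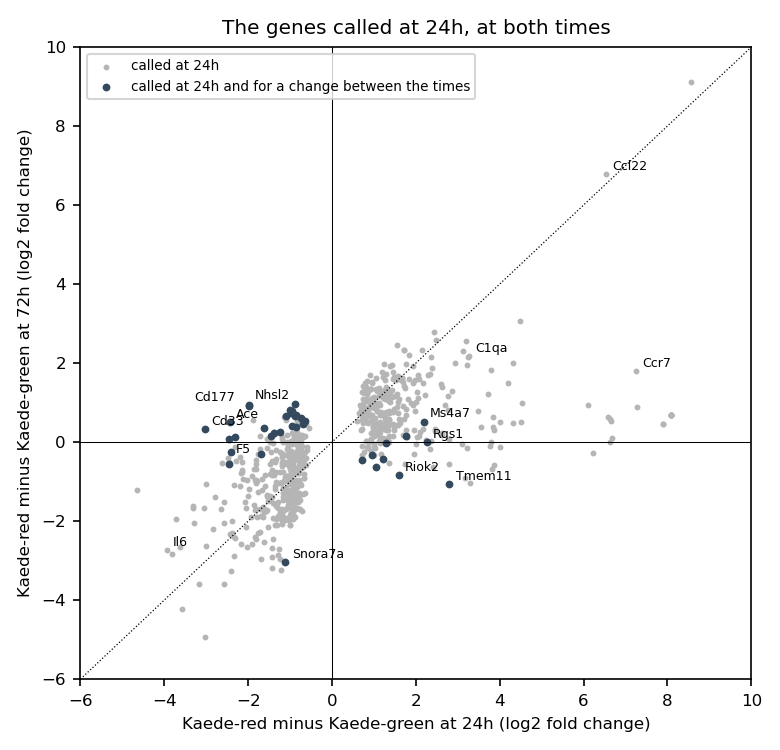
The 724 genes called at 24h, with the log2 fold change of Kaede-red over Kaede-green at 24h on the x axis and at 72h on the y axis, and the line of equal values dotted. The 36 dark points were also called for a change between the times. Of them, 34 lie nearer to 0 at 72h than at 24h, which the choice by the 24h call favours.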

How the data were processed

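Per the study's methods and labels, RNA of the sorted cells was made into stranded total RNA libraries, trimmed with Trim Galore, aligned to mm10 with HISAT2 and counted per gene with featureCounts by the authors. The deposited values are raw counts per gene. Tool versions and the strand setting of the counting are not given in the sources used here. Named genes that overlap another annotated gene include Il6, Il1b, Cxcl10, Cxcl16, Ccl4, Cd72, Pltp and Nr1h3, the last with Acp2. How reads in such overlaps were counted is uncertain. Of 24421 genes, 9642 passed edgeR's expression filter. All 16 libraries entered 1 quasi-likelihood fit (edgeR 4.0.16, R 4.3.3) with a mean per colour and time and TMM factors, and p-values were adjusted over all genes tested by Benjamini-Hochberg. Called means an adjusted p under 0.05. Errors of log2 fold changes are standard errors. DESeq2 1.42.0 was an alternative, and the fit was also run on simulated counts, with the outcome not reported here. Sequences and spans come from RefSeq GRCm38.p6, to which 95% of symbols matched. Intervals and floors (3 counts) cover counting error only. The labels do not name the mouse of each library, and p-values measure the spread between these samples.

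The members, lists and tests were chosen with earlier results of these data known. The genes named were the 12 largest rises and falls among called genes at a mean log2 CPM from 3 upwards whose groups were apart, the 2 called members of each list with the largest rise and fall, 10 genes that the study singles out, the 5 largest changes each way between times, and Ptprc, Itgam and Rn45s. These are 98 genes, and 20 more were chosen after their values were seen, as were the list members named for not being called. A few members of these lists are counted in them but not reported here by name.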

Additional observations from a re-analysis of the deposited data

Results flagged for a closer look

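Single libraries stood far from the rest of their group of 4 by Dixon's test, which flags about 1 in 20 groups by chance. Of the Kaede-green libraries at 24h, these were replicate 4 for Ace (9.39 CPM), replicate 2 for Nr1h3 (7.76 CPM), replicate 3 for Rgs1 (10.2 CPM), replicate 1 for Spic (1.67 CPM) and replicate 2 for Trem1 (15.9 CPM). Of the Kaede-red libraries, these were replicate 1 for Ccl22 (2.19 CPM), replicate 1 for Cd93 (48.0 CPM), replicate 2 for Il15ra (3.88 CPM) and replicate 3 for Uqcrh (28.4 CPM). With 118 named genes in both colours, chance alone would be expected to flag at least as many groups as are listed here. None of these libraries is thus shown to be unusual.

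The red-green difference of several named genes changed between 24h and 72h by the test of the change itself. On the log2 scale, 72h minus 24h, it rose by 2.95 for Ace, 2.92 for Cd177, 3.35 for Cd33, 2.54 for F5, 2.44 for Gm8979, 1.89 for Hp, 2.16 for Ifitm6, 1.38 for Itga4 and 2.92 for Nhsl2. The change was -1.62 for Dars, -1.67 for Ms4a7, -2.25 for Rgs1, -2.42 for Riok2, -1.92 for Snora7a and -3.85 for Tmem11.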

How the results depend on the processing

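The 309 genes called higher became 4362 with the library size outside Rn45s and no TMM factor, 181 in a fit of the 8 libraries at 24h alone and 88 with the Rn45s share as a covariate, and the 415 called lower became 79 with that library size and 118 with the covariate. Leaving out 1 library at a time gave 193 to 322 higher and 296 to 513 lower. In alternatives chosen after seeing the data, the counts were 692 and 256 with Rn45s, Lars2, Mir6236 and Mir6240 out of the library size and no TMM factor, and 123 and 215 with Kaede-red replicates 3 and 4 alone. The 74 genes called for a change between the times became 344 with DESeq2, 216 without a filter, 137 with at least 10 counts in every library at 24h, 34 with the covariate, 287 with Kaede-red replicates 3 and 4 alone, and 2 to 155 on leaving out 1 library. With the library size outside Rn45s and no TMM factor, the log2 fold change took the other sign for Cebpb (0.0070), Clec4d (0.015), Nlrc5 (0.23), Oaz1 (0.21), Ptgs2 (0.030), Tnfaip2 (0.099) and Itgam (0.86), by the shift of all genes that this scaling makes. Of the 112 named genes called, 85 were called in each of the 8 fits without 1 library, and DESeq2 called all 112. With the Rn45s share as a covariate 47 of the 112 lost their call, with Kaede-red replicates 3 and 4 alone 33, with the library size outside Rn45s and no TMM factor 28, besides 6 that reversed, and with Kaede-red thinned to the Kaede-green depth 3. The causes of the other changes were not tested. Kaede-green depth limits what could be seen of low genes.

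With the replicate number as a block, 277 genes were higher, 428 lower and 164 changed between the times, and 638 of the 724 calls were shared. Same-numbered libraries had correlations of deviations of 0.075, 0.305, 0.145 and 0.317, and differently numbered ones of -0.361 to 0.304. For Kaede-green replicates 3 and 4 the same number gave the highest value. Kaede-green replicate 1 correlated about as well with Kaede-red replicate 2 (0.076) as with its own number. The same held for Kaede-green replicate 2 and Kaede-red replicate 1 (0.304). The labels state no pairing, and whether the numbers pair the libraries was not tested.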

Other observations

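The genes of this section were chosen after their values were seen. Of 6 S100 genes tested, which encode small calcium-binding proteins, 5 were lower in Kaede-red and none higher, with a median log2 fold change of -1.14. S100a10 was read at 182, 164, 214 and 129 CPM in Kaede-green and at 48.4, 56.8, 62.8 and 56.5 in Kaede-red (-1.62 ± 0.22). S100a6 was read at 224, 222, 166 and 125 CPM in Kaede-green and at 76.4, 77.1, 91.8 and 79.8 in Kaede-red (-1.18 ± 0.22). The groups were apart for both. Tmsb10, an actin-binding thymosin, was lower at -1.56 ± 0.19, and Crip1, a small LIM domain protein, at -1.83 ± 0.25. Tyrobp, the DAP12 adaptor of activating receptors, was read at 168, 158, 133 and 83.2 CPM in Kaede-green and at 61.8, 55.0, 64.3 and 55.1 in Kaede-red (-1.20 ± 0.21), again with no overlap. Casp1, the protease that processes interleukins 1 beta and 18, was lower at -1.27 ± 0.24, Il15ra at -1.59 ± 0.30, Cd69 at -1.38 ± 0.22 and Crem at -1.09 ± 0.24.

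Of 67 snoRNA genes tested, 18 were lower in Kaede-red and none higher, with a median of -1.23. Snord110, which lies within Nop56, was read at 22.3, 19.2, 12.2 and 11.4 CPM in Kaede-green and at 1.93, 1.94, 4.71 and 4.26 in Kaede-red (-2.33 ± 0.53), and Snord65 was at -2.995 ± 0.64. The snoRNA host Gas5 was lower at -1.70 ± 0.33, the only one called of 6 host genes tested, whose median was 0.90. Whether the reads counted for a snoRNA came from it or from the RNA of its host cannot be told from these counts. Of 62 replication-dependent histone genes, 8 were lower and none higher, with a median of -0.20, Hist1h4i being one of them (-1.62 ± 0.35, with the groups overlapping).

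Pltp, the phospholipid transfer protein, was read at 5.57, 3.68, 2.55 and 2.86 CPM in Kaede-green and at 23.9, 17.2, 11.95 and 8.25 in Kaede-red (2.14 ± 0.35), and it overlaps Ctsa. Dab2, an endocytic adaptor, was higher at 1.46 ± 0.22, Cd93 at 1.23 ± 0.24 and Tgfbr1 at 1.10 ± 0.24, while the integrin gene Itga4 was lower at -0.97 ± 0.20. Of 7 Cd300 genes, 3 were higher and none lower, among them Cd300e (2.75 ± 0.53) and Cd300lh (1.55 ± 0.30), the latter sharing its locus with Gm11711. Of 8 Ms4a genes 1 was higher and 2 lower, of 7 Rgs genes 2 were higher and 1 lower, and of 4 Ifitm genes 2 were lower and none higher.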
